A study of Mus musculus with 4 samples.

Results

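The regions described here were open-chromatin peaks of mouse embryonic limb found in both wild-type peak lists and in neither list of embryos carrying a stop cassette, once all lists had been cut to the same length. In ATAC-seq a transposase, Tn5, inserts adaptors into accessible DNA, and the sequenced fragments mark open promoters and enhancers. Of 51892 merged regions, 1159 met this rule, which is 2.23%. The members were chosen by the peak scores of these same 4 lists, so the count and the scores of the members are a description and were not tested.

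The 4 libraries came from limb tissue labelled forelimb and hindlimb together, at embryonic day E11.5, on the strain background c57bl6.J X 129S6.sv in both genotypes. The groups were 2 libraries labelled wild type and 2 labelled as mutants with a stop cassette insertion (3xpA). All had been brought into suspension with trypsin and fixed before transposition, so both groups share those steps. The labels do not give the insertion site, the number of embryos per library or whether the libraries of a genotype came from separate litters, so differences between libraries may be technical. Peak names in both wild-type lists give replicate number 1, followed by 1 or 2, while the stop cassette lists are numbered apart. The wild-type lists may therefore share a source, which would also bear on the regions they share.

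The series addresses the lncRNA Maenli and engrailed-1 (En1), the transcription factor of the ventral limb ectoderm that sets the dorsoventral axis by keeping Wnt7a and Lmx1b activity dorsal. A polyadenylation stop cassette ends transcription early, so the comparison asks whether limb chromatin differs when it is present. Distal enhancers, which lie far from the starts they regulate, make up much of the open chromatin that differs between limb cell types, while promoters of widely expressed genes are open in most cells. CTCF, the insulator protein bound at loop anchors, marks many further open sites.

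The deposited lists differed in length, with 51701 and 68471 summits in wild-type replicates 1 and 2 and 79083 and 107827 in stop cassette replicates 1 and 2. A summit is the position of highest signal in a peak, given as 1 bp on mm9, and its score behaves as −log10 of a q-value. Each list was cut to its 51701 highest scores, summits were extended by 250 bp on each side, and overlapping intervals were merged. The lowest score kept was 1.30 in wild-type replicate 1, 3.74 in wild-type replicate 2, 5.02 in stop cassette replicate 1 and 6.24 in stop cassette replicate 2. A region near these limits could lie on either side of the rule. The member nearest Aff1 had a summit of 5.01 in stop cassette replicate 1, just under its limit of 5.02, while a region nearest Ccdc40 was held out by a summit of 5.02 at that limit. No read counts are given, so the depth is unknown and a score only ranks peaks within its list, as a percentile from weakest to strongest.

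The list of stop cassette replicate 1 stood apart from the other 3 on 2 measures. It held the most regions that no other list shared (5793, against 3198 to 4235), and 3.50% of its summits lay over 100 kb from a start against 5.35% to 6.16%. Its share of summits within 1 kb of a start, 53.3%, lay between those of the others (49.0% to 57.8%). Regions nearest to limb mesenchyme transcription factor genes numbered 179, of which 47 (26.3%) were held by all 4 lists, against 38.3% of all regions. The same share was 35.3% for blood marker genes (24 of 68) and 17.6% for liver genes (3 of 17). Muscle precursor (26.6%), cartilage (27.2%) and endothelial genes (27.7%) lay close to the mesenchyme share. Across the 16 gene lists the share ran from 3 of 26 regions for HoxA and HoxD to 28 of 71 (39.4%) for FGF genes. These shares do not separate mesenchyme from other cell types. They count all 4 peak lists together, so they cannot show whether stop cassette replicate 1 differed.

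Both mixed-genotype pairs that contain stop cassette replicate 2 held more exclusive regions than the wild-type pair. The 4 pairs of 1 wild-type and 1 stop cassette list cross the genotypes and serve as the control. Wild-type replicate 1 with stop cassette replicate 2 held 1327 regions (2.56%), and wild-type replicate 2 with that same list held 1908 (3.68%). Wild-type replicates 1 and 2 with stop cassette replicate 1 held 635 (1.22%) and 692 (1.33%). The stop cassette pair held 2708 (5.22%), so the wild-type count lay inside the mixed range and the stop cassette count above it. This order depended on the extension: at 50 bp the wild-type pair held 4521 regions against 2026 to 3274 in the mixed pairs, and at 100 bp 2698 against 1326 to 2646, above every mixed pair both times. The 6 pairs share lists and no test across them was made.

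**Figure D1:**
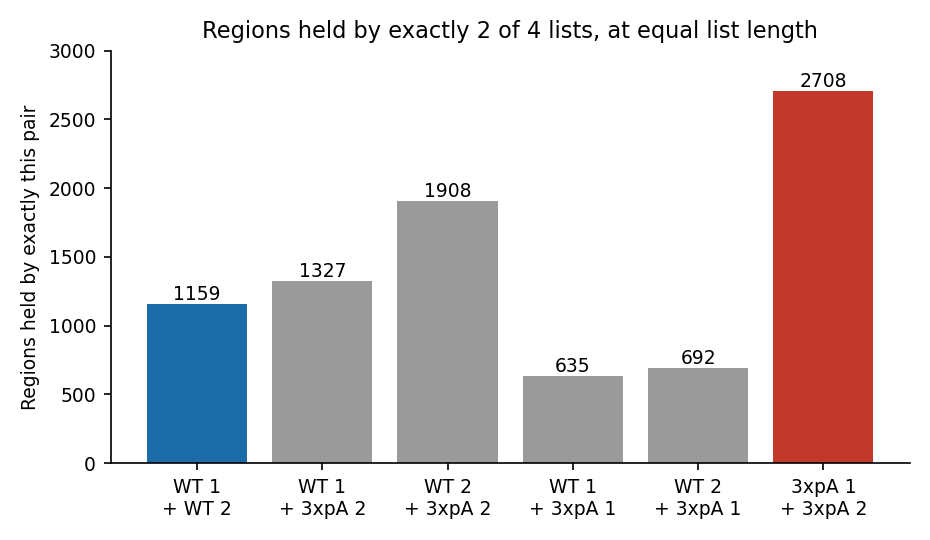
Regions held by exactly 2 of the 4 lists, by pair, each list cut to its 51701 highest scores; bars are counts of merged regions. The wild-type pair, at 1159, sits between the mixed pairs (grey, 635 to 1908), and the stop cassette pair is highest at 2708.

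Most members had a summit in the uncut stop cassette lists, at a score under the limit. Such a summit is called weaker here only because it lies under the limit of its own list. Scores are not scaled between lists, and some of these summits scored above the wild-type summits of the member. Of the 1159 members, 446 (38.5%) had such a weaker summit in both lists, 550 (47.5%) in replicate 2 only and 27 (2.33%) in replicate 1 only. The remaining 136 (11.7%, Wilson 95% interval 10.01 to 13.7, counting error only) had none in either. Replicate 1 held a weaker summit at 40.8% of the members, against 42.7% and 45.4% of the 2 mixed pairs that lack it. Replicate 2 held one at 85.9% of the members, against 87.2% and 87.6% of the mixed pairs that lack it. These shares were below the mixed ones for both lists, with overlapping Wilson intervals in all 4 comparisons.

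The members ranked low in the wild-type lists too. Their median percentile was 25.5 in wild-type replicate 1 and 29.0 in replicate 2, and 54 members (4.66%) lay above the 50th percentile in both. In the mixed pairs that last share was 2.02% to 4.98%. Many scores were tied: 63 members carried the same pair of scores, 3.04 and 4.62, and the 1159 members had 755 distinct pairs. The highest-scoring summits of the 2 wild-type lists in a member lay a median of 42 bp apart. This was further than in the mixed pairs (23 to 37 bp) or the stop cassette pair (18 bp).

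**Figure D2:**
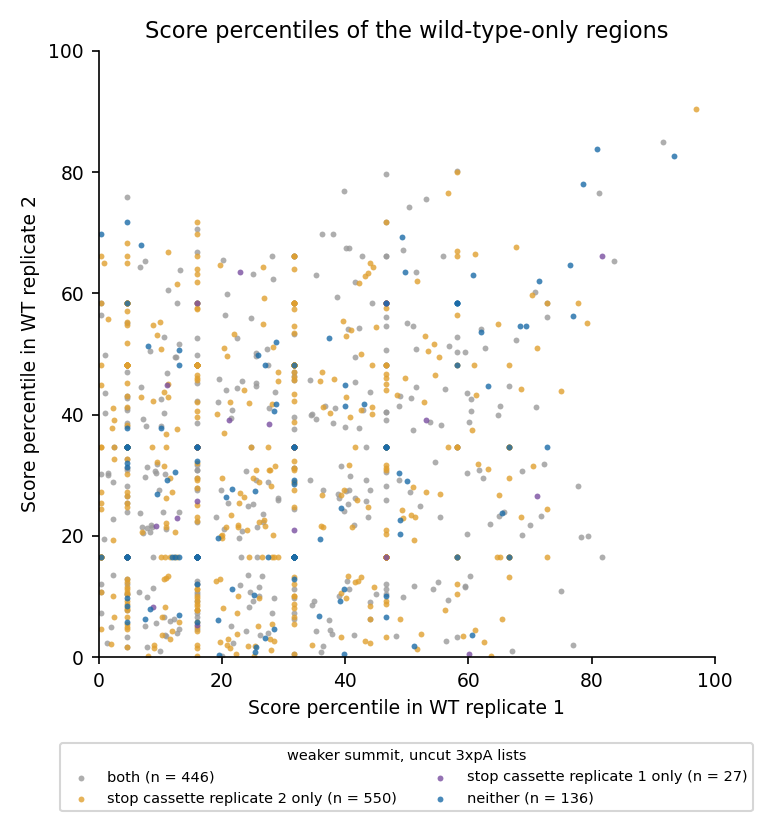
Score percentile of each of the 1159 members in wild-type replicate 1 (x axis) and replicate 2 (y axis), coloured by whether the uncut stop cassette lists hold a weaker summit there. Most points lie low on both axes, the vertical and horizontal rows are tied scores, and the 136 members with no weaker stop cassette summit are spread through the cloud.

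The sequences of 4 members are shown because no stop cassette summit, at any score, lay within 10 kb of them; 54 members (4.66%) were isolated in this way. They are among the 6 highest-ranked isolated members on the chromosomes from which members are named and overlap no UTR, and each is named for the nearest protein-coding gene. Each line gives 300 bases around the region's centre, plus strand, mm9, with matches to the 17 motifs searched on both strands in capitals.
Col5a1, chr2:27668840-27669139: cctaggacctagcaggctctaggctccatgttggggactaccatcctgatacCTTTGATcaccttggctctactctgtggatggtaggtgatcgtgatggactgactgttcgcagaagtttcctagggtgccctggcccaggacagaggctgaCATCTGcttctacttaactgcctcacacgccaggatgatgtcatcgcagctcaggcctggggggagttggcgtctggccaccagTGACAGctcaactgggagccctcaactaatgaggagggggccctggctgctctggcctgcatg
Stmn2, chr3:8245211-8245510: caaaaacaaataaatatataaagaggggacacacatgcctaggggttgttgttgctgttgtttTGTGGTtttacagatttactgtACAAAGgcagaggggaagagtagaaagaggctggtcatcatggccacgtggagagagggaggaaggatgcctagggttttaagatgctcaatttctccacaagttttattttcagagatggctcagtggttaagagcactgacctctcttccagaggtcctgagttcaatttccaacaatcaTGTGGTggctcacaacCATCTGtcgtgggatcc
Gdi2, chr13:3372183-3372482: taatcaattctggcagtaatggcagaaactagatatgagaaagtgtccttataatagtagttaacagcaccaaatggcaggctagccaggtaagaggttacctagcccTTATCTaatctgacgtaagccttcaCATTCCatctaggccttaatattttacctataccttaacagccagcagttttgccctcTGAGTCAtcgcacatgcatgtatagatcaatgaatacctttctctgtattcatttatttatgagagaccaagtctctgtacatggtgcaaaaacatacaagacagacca
Vwc2, chr11:11031750-11032049: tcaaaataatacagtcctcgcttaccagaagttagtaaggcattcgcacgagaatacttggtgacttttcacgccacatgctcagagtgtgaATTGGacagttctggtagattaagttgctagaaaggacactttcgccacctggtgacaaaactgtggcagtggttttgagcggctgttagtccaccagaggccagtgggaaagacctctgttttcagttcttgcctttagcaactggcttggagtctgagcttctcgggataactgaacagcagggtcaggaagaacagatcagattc
The Col5a1 region (chr2:27668730-27669248) was intergenic, 72956 bp upstream of the start of Col5a1, a chain of fibrillar collagen V. Its percentiles were 58.1 in wild-type replicate 1 and 58.4 in replicate 2, and the nearest summits of stop cassette replicates 1 and 2, uncut, lay 22813 and 22820 bp away. Its window held 1 match each to CATCTG (an E-box), CTTTGAT (LEF/TCF) and TGACAG (MEIS), which occur in 23.5%, 3.64% and 18.6% of all region windows. The Stmn2 region (chr3:8245105-8245616) lay 264167 bp upstream of the gene for the neuronal microtubule regulator stathmin 2 and 29485 bp from the nearest annotated start, that of Gm7103. It held 2 RUNX matches (TGTGGT; 18.1% of all windows), 1 SOX match (ACAAAG; 19.8%) and 1 CATCTG. Its scores equalled those of the Col5a1 region, 6.08 and 7.99, so these regions were tied. Repeats were not masked in the motif search, so a match may lie in repeat sequence.

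The Gdi2 region (chr13:3372082-3372583), 164989 bp upstream of a Rab GDP dissociation inhibitor gene, had percentiles of 72.8 and 34.7 and held 1 match each to the GATA, TEAD (GGAATG) and AP-1 motifs, found in 12.3%, 15.6% and 8.26% of all windows. The Vwc2 region (chr11:11031609-11032190) lay in an intron of Vwc2, which encodes a secreted BMP antagonist, 15411 bp downstream of its start, with percentiles of 58.1 and 48.2 and a single CCAAT match (30.9% of all windows). A further isolated region, chr2:122506841-122507950, overlapped a UTR of the zinc transporter gene Slc30a4, with percentiles of 63.1 and 44.7. This region was 1110 bp wide, and the highest-scoring summits of wild-type replicates 1 and 2 in it lay 442 bp apart. Isolated members on chromosome 18 are not named, and 1 of them ranked as high as the Col5a1 region.

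The highest-ranked members were not isolated. Ordered by mean wild-type percentile, and with chromosome 18 and unplaced sequence left out, they were regions nearest Gm10722 (88.3), Zfp78 (88.1), Pdp1 (82.4), Hus1 (78.3) and Gm11168 (74.5). The Zfp78 region (chr7:6315674-6316273), 8095 bp upstream of a zinc finger gene, had scores of 16.4 and 13.9 in wild-type replicates 1 and 2. The Pdp1 region (chr4:11892667-11893174) covered the start of the pyruvate dehydrogenase phosphatase gene, with scores of 10.4 and 14.4. The Hus1 region (chr11:8910397-8910898) covered the start of a DNA damage checkpoint clamp subunit gene, with scores of 9.65 and 12.1. All 3 had a summit of both stop cassette lists, within the equal length, between 571 and 790 bp away. When summits were extended by 500 bp, these neighbours merged and all 3 left the set.

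The Gm10722 (chr9:2999834-3000349) and Gm11168 (chr9:3003963-3005042) regions belong to a cluster at the assembled start of chromosome 9. In the first assembled Mb, up to position 4000000, 8 of 27 regions were members (29.6%), against 0 or 1 for each other pair, and 7 were held by all 4 lists. The 8 members lay between positions 2999834 and 3036577. The genes there are predicted ones with Gm symbols, and the sequence at the first position could not be read in full. As deposited, wild-type replicates 1 and 2 held 36 and 33 summits in the first assembled Mb. Stop cassette replicates 1 and 2 held 34 and 26. The cut left 36 and 32 in the wild-type lists and 23 and 14 in the stop cassette lists. Both stop cassette lists had a weaker summit at the Gm10722 and Gm11168 regions, which left the set with the lists as deposited. Without the first Mb of the chromosome, 1151 members remained. Members on chromosome 9 then made up 4.60% of the set, within the mixed range of 4.22% to 5.08%. Among the other chromosomes, in the full set, chromosome 13 (5.18%) lay above the mixed range. Chromosomes 8 (4.40%), 10 (4.66%) and 19 (1.55%) lay below it. The members' Wilson intervals reached into the mixed range for all of these chromosomes.

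At this extension and list length, fewer members than regions overall lay at promoters. Within 1 kb of an annotated transcript start lay 193 members, or 16.7% (Wilson 95% interval 14.6 to 18.9), against 32.3% of all regions and 61.6% of those held by all 4 lists. The mixed pairs ranged from 11.0% to 19.5%, which includes the members' share. The share rose to 65.6% at an extension of 50 bp (mixed pairs 34.6% to 61.9%), to 55.3% at 100 bp (24.3% to 52.5%) and to 24.1% with lists cut to 40000 (14.4% to 22.8%), above every mixed pair in these 3 settings. Exons away from starts held 28 members (2.42%, 1.68 to 3.47), below the mixed range of 2.86% to 5.35%, into which that interval reached. A further 234 (20.2%) lay 1 to 10 kb from a start. Introns and intergenic sequence 10 to 100 kb from a start held 229 (19.8%) and 307 (26.5%). The remaining 166 placed members (14.3%) lay over 100 kb away. The 2 members on unplaced sequence have no annotation here.

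The remote share followed which lists formed the pair. It was 14.2% and 16.6% in the mixed pairs with stop cassette replicate 2, 6.50% and 8.50% in those with replicate 1, and 4.69% in the stop cassette pair. The members, at 14.3% (12.4 to 16.5), lay with the pairs that lack stop cassette replicate 1. When that library was left out, the wild-type-only count was 1663, 20.4% lay at starts and 12.3% were remote. The median distance of a member to a start was 18213 bp, within the mixed range of 10148.5 to 23949.5 bp.

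**Figure D3:**
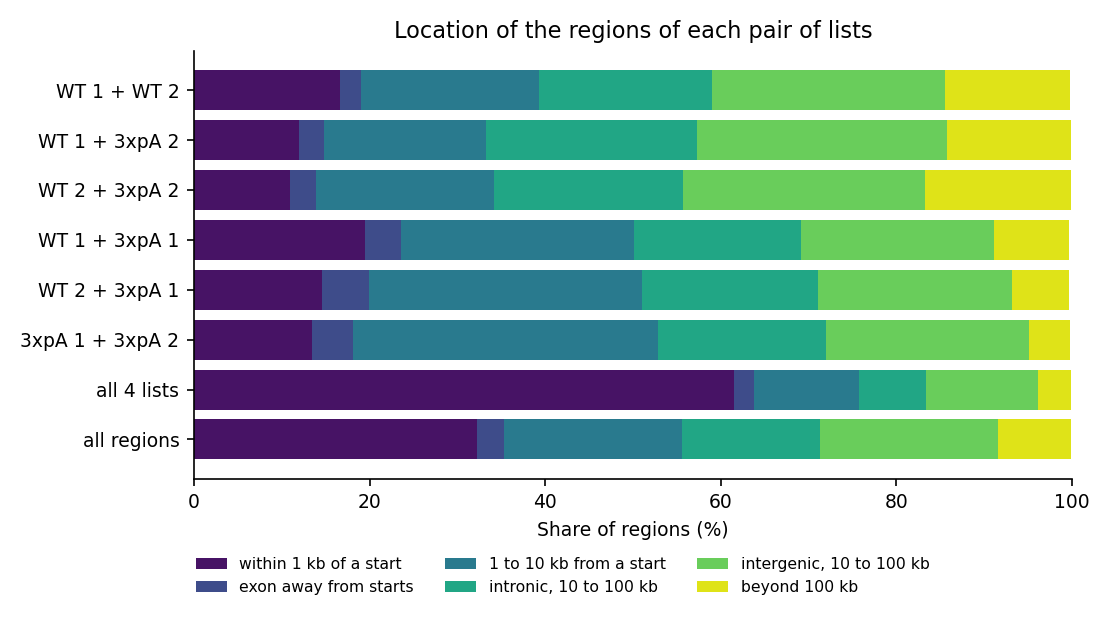
Share of regions (x axis, percent) in 6 location classes, for the 6 pairs of lists, the regions of all 4 lists and all merged regions. The wild-type pair resembles the 2 mixed pairs below it in its remote share of 14.3%, while the 3 pairs with stop cassette replicate 1 have 4.69% to 8.50%.

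Whole lists were also compared, with each library taken as a replicate, although the wild-type lists may share a source; their SD and the test then measure only the spread between these libraries. At equal length, 57.8% and 55.3% of summits in wild-type replicates 1 and 2 lay within 1 kb of a start, against 53.3% and 49.0% in stop cassette replicates 1 and 2. The groups did not overlap. Means were 56.5% ± 1.78 and 51.2% ± 3.06 (SD, n = 2 each), and the difference of 5.38 percentage points had a two-sided exact permutation p of 0.333, the smallest that 2 against 2 libraries can give. For remote summits the means were 5.58% ± 0.313 and 4.83% ± 1.88 (SD, n = 2 each), with an exact permutation p of 1.

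The members' median GC content was 51.3%, above the 48.0% to 51.0% of the mixed pairs. The CpG observed over expected ratio, which is near 1 where CpGs have not been lost and is high at CpG islands, had a median of 0.268, inside the mixed range of 0.266 to 0.271. A ratio of at least 0.6 was found in 14.7% of members (12.8 to 16.9), against 9.29% to 12.5% in the mixed pairs and 56.7% in the regions of all 4 lists. This share was above every mixed pair; its interval overlapped that of the highest (10.2 to 15.1) and did not overlap that of the lowest (8.06 to 10.7).

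Of the 17 motifs, the CTCF core showed the widest gap between the members and the control pairs. The core, searched on both strands, occurred in 69 of 1157 windows of the members, or 5.96% (4.74 to 7.48). The mixed pairs had 10.3% (8.81 to 12.1), 12.7%, 15.3% and 23.9%, the stop cassette pair 21.6% and all regions 10.9%. Away from starts the members had 6.43% and the mixed pairs 10.6% to 26.1%. The members' share was below that of every mixed pair at extensions of 50, 100 and 500 bp, with joining at 50% overlap, and at each list length tried, with the narrowest gap for the lists as deposited (7.26% against 7.80%).

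The other motifs mostly fell within the mixed range. AGATAA, the GATA motif, occurred in 9.16% of members, near the 8.90% and 9.08% of the mixed pairs with stop cassette replicate 2 and below the 15.8% and 21.3% of those with replicate 1. TAATTA, a homeodomain palindrome of the kind bound by En1 and Lmx1b among many others, occurred in 9.42%, against 10.5% and 12.8% with replicate 2 and 4.64% and 5.37% with replicate 1 and 6.83% in all windows. The AP-1 motif TGANTCA occurred in 7.61% of members (6.21 to 9.28), under the mixed range of 7.97% to 9.28%, which that interval covered. MEIS (TGACAG, 19.5%) and SOX (ACAAAG, 21.2%) were also under their mixed ranges of 20.3% to 20.7% and 21.8% to 22.9%, by less than the width of the members' intervals. A match is a run of letters and does not show binding.

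**Figure D4:**
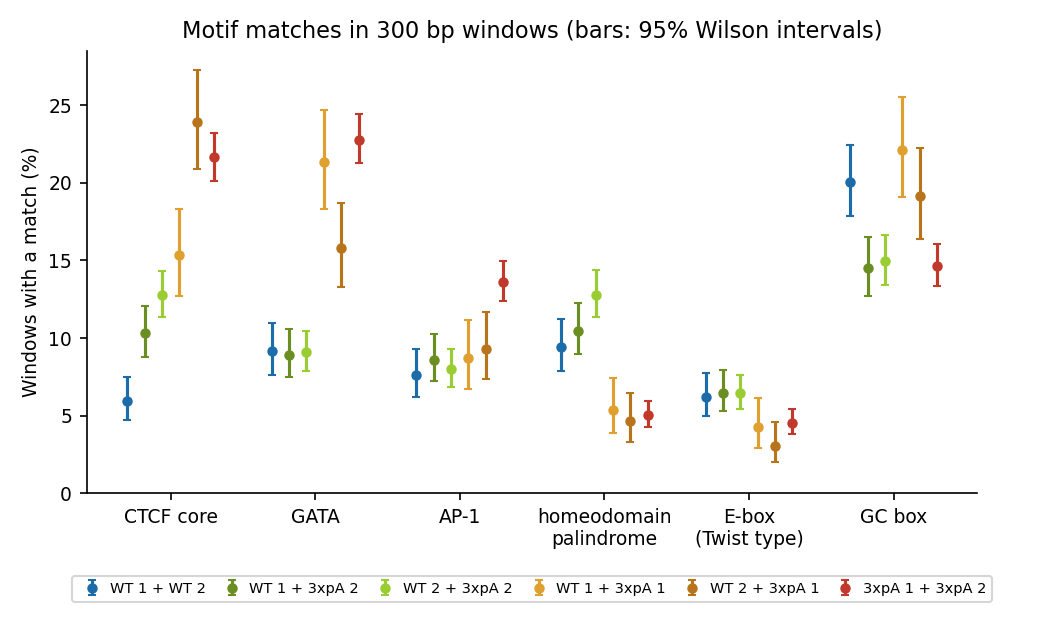
Percent of 300 bp windows with at least 1 match to 6 motifs (y axis), by pair of lists; points are shares and bars 95% Wilson intervals for counting error. The wild-type pair is lowest for the CTCF core (5.96%), while for GATA it sits with the 2 mixed pairs that contain stop cassette replicate 2. For the homeodomain palindrome it lies below those 2 pairs and above the 2 mixed pairs with replicate 1.

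The members were scattered over genes. The 1157 placed members had 1053 nearest protein-coding genes, of which 963 had 1 member, 77 had 2 and 13 had 3 or more. Rybp, a subunit of Polycomb repressive complex 1, had 4, at chr6:100170912-100171640, chr6:100042715-100043304, chr6:100286629-100287278 and chr6:100109191-100109691. They lay 49518 to 194426 bp from its start. Stop cassette replicate 2 had a weaker summit at all 4 and replicate 1 only at the one upstream of the start. Of the 20 regions nearest Rybp, 4 were held by all 4 lists and 4 by mixed pairs, 3 of those by wild-type replicate 1 with stop cassette replicate 2.

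Rybp and the next 4 genes were picked for having the most members, so their counts exceed the 2.23% of all regions by choice. Dlk1, an imprinted gene of the Notch ligand family, had 3 of its 12 regions in the set and 2 in mixed pairs, 1 each in the pairs with stop cassette replicate 2. The one at its start, chr12:110691225-110691736, had percentiles of 22.0 and 53.2, and those 6630 and 39985 bp upstream had means of 46.3 and 34.3. Ntf3, which encodes neurotrophin 3, had 3 of 9 and 0 in mixed pairs, among them chr6:126116806-126117306 at 294 bp from its start. Dynlrb2, for a dynein light chain, had 3 of 8, all 120751 bp or more upstream, and 1 in a mixed pair. Rpsa-ps10, annotated here as protein-coding, had 3 of 18, with 3 more held by wild-type replicate 2 with stop cassette replicate 2. Chromosome 18 left out, the best-ranked members of the other location classes lay nearest Exoc6 (an exocyst subunit; intronic, 58.1 and 80.2), Pitpnc1 (a phosphatidylinositol transfer protein; exonic, 72.8 and 56.1), Dcaf4 (intergenic, 79.2 and 55.1) and 3930402G23Rik (remote, 72.8 and 58.4).

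At starts, 178 of the 193 members (92.2%) belonged to protein-coding genes and 8 (4.15%) to lincRNAs. For the members away from starts, the start of the nearest protein-coding gene was itself open in all 4 lists for 626 of 964 (64.9%, 61.9 to 67.9). The mixed pairs had 67.5% to 70.7%.

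Of 1210 regions nearest to the 225 genes of 16 limb and cell type lists, 45 were members (3.72%), against 2.23% over all regions. The mixed pairs held 14, 17, 43 and 67 of them, so the members' number lay inside the mixed range. Only the Meis2 region among the 45 had no weaker summit in a stop cassette list.

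The retinoic acid pathway was the list with the highest share, 7 of 66 regions (10.6%, against 2.23% over all regions). Each mixed pair had 0 to 3 and the stop cassette pair 3. It was the only one of the 16 lists whose count of members lay above that of every mixed pair, and it was singled out after all 16 had been counted. Retinoic acid is made by aldehyde dehydrogenases, carried by the Crabp proteins and read by the Rar receptors, and it acts in the proximal limb. Of the synthesis genes, Aldh1a2 and Aldh1a3 had 1 remote member each, 121784 and 118074 bp away. Of the binding protein genes, Crabp1 had a member at its start (chr9:54612355-54612888; percentiles 38.0 and 38.7) and another 38279 bp off (26.7 and 64.3), and Crabp2 had 1 at its start (chr3:87752158-87752799; 37.9 and 3.82). Of the receptors, Rara had a member 1405 bp from its start in its own intron (chr11:98797351-98797864), with percentiles of 51.7 and 62.1, and Rarb 1 at 201408 bp. All 7 had a weaker summit in stop cassette replicate 2, and 3 of them also in replicate 1. The count was 4 with lists cut to 40000, 3 at 30000 and 0 with the lists as deposited.

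The dorsoventral list, En1, Lmx1b and Wnt7a, had 2 of 28 regions (7.14%, against 2.23% over all regions), and 2 mixed pairs also had 2. The En1 region, chr1:122582342-122582886, lay 83619 bp downstream in intergenic sequence. Its scores were 2.14 and 7.61 in wild-type replicates 1 and 2, at percentiles 4.54 and 55.0, and stop cassette replicates 1 and 2 held weaker summits of 2.43 and 4.42 at 13 and 36 bp. Replicate 1 of the stop cassette thus had a higher score there than wild-type replicate 1, although scores are not scaled between lists. The other member within the Mb around En1, chr1:123074305-123075039, was nearest to Insig2, a regulator of sterol synthesis, and ranked low in both wild-type lists (4.54 and 5.85). The nearest stop cassette summits lay 2470 and 2402 bp from it. The Lmx1b member lay 8545 bp from its start and ranked at 31.7 and 0.466.

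Limb mesenchyme transcription factors had 9 of 179 regions (5.03%; mixed pairs 2 to 9), among them the Prrx2 region 1143 bp upstream of its start (chr2:30689075-30689623; 36.4 and 21.5). The others lay nearest Irx3, Meis1, Meis2, Osr1, Sall1, Sall4 and, with 2 members, Sall3. Limb identity and T-box genes had 4 of 65 (6.15%, against 2.23% over all regions), where the mixed pairs had 1 to 5. These members lay nearest Isl1, Tbx4, Tbx15 and Tbx18. The Isl1 region, chr13:117083809-117084464, had percentiles of 8.76 and 54.7. BMP genes had 6 of 155 (3.87%, mixed 2 to 8). Of these, 2 lay near the inhibitory Smad6 and 1 each near the ligand Bmp7, the antagonist Nog and the targets Id1 and Id2. The Smad6 intron region, chr9:63806907-63807418, ranked at 53.4 and 50.5.

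Wnt genes had 4 of 88, with 2 near the effector Lef1 and 1 each near Axin2 and the secreted Sfrp2, whose region chr3:83384604-83385143 ranked at 46.6 and 71.8. FGF genes had 2 of 71, at the Fgfr1 start and 195847 bp from Fgf10, the bud mesenchyme ligand. The Shh pathway had 2 of 95, near the hedgehog-binding Hhip (chr8:82729098-82729642; 16.0 and 34.7) and Cdon. The HoxA and HoxD clusters had 1 of 26, at the Hoxd8 start (chr2:74542711-74543243; 54.5 and 32.2). Each of these counts lay within the range of the mixed pairs. Their shares were 4.55% (Wnt), 2.82% (FGF), 2.11% (Shh) and 3.85% (HoxA and HoxD), against 2.23% over all regions.

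Markers of other cell types gave 0 to 3 members a list, set here against 2.23% over all regions. Neural genes had 3 of 41 (7.32%; mixed pairs 0 to 4), near Sox2, Neurog1 and Neurog2. Endothelial genes had 2 of 65 (3.08%; mixed 0 to 4), at Sox7 and Tie1. Muscle precursors had 1 of 79 (1.27%; mixed 0 to 6), near Pax3, surface ectoderm 1 of 42 (2.38%; mixed 0 to 2), near Sp8, and liver 1 of 17 (5.88%; mixed 0 to 2), near Apob. Cartilage genes and blood genes (68 regions) had 0, where the mixed pairs had 1 to 7 and 0 to 2.

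**Figure D5:**
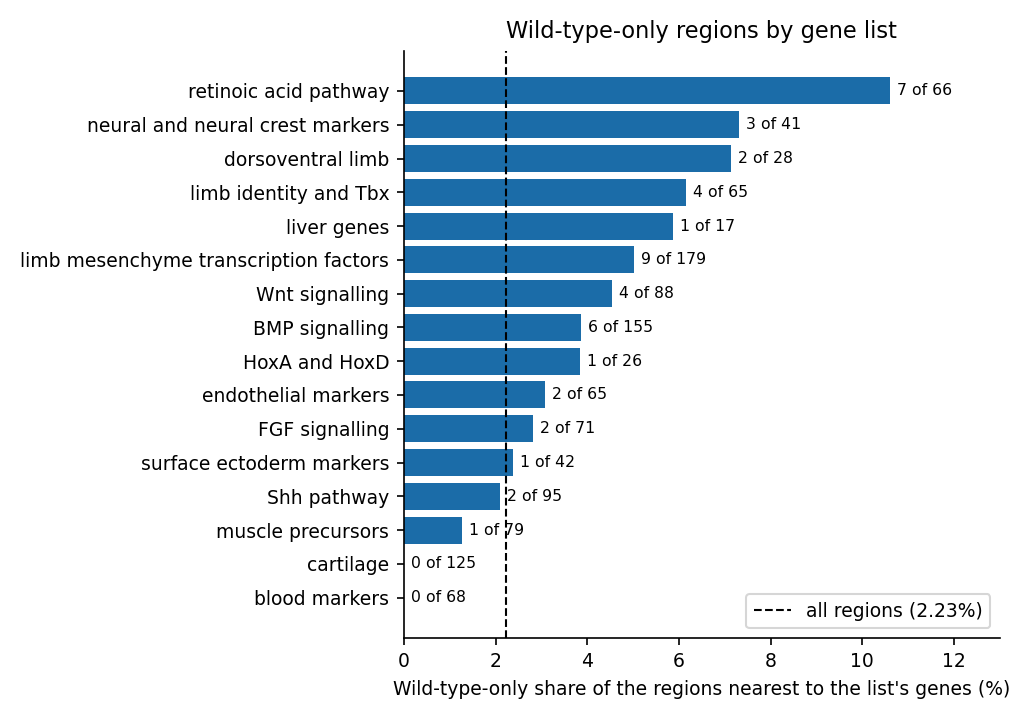
Members as a percent of all regions nearest to the genes of each list (x axis), with counts at the bars; the dashed line is 2.23%, the share over all regions. The retinoic acid list is highest at 7 of 66, and cartilage and blood have none.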

How the data were processed

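The labels describe 4 ATAC-seq libraries of E11.5 limb, with 1 peak list each, so peaks were called per library. Bowtie2 2.2.6, Picard and build mm9 are named in the submitters' processing notes. Per the names inside the deposited lists, duplicates and mitochondrial reads were removed at a mapping quality of 30. The peak caller, any shift for Tn5 and any control track are not given in the sources used here. The deposited score was read as −log10 of a q-value, since its lowest value in each list is near 1.30 and the lists hold 1 bp summits.

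Lists were cut to 51701 summits (ties by file order), extended by 250 bp and merged on any overlap. Location came from GENCODE M1 on NCBIM37, which is the build of the files (0 summits beyond a chromosome end of 21 compared), using 86955 transcript starts. A region takes the nearest start to its centre. GC, CpG ratio and motifs were read in 300 bp windows, with repeats not masked. Groups and replicate numbers came from the titles. Wilson intervals cover counting error only. Whole lists were compared with exact permutation tests (Python 3.11.15, scipy 1.17.1, pandas 2.3.3, pysam 0.24.0).

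The members, gene lists and rules were chosen with earlier results of these data known. Named members were the 5 highest by mean wild-type percentile, the 6 highest isolated ones, the highest of each gene list and location class, and those of the 5 genes with most members; those in the Mb around En1 were added. Chromosome 18 and unplaced sequence were not named, and 1 of the 6 isolated members is not reported here. The Spi1 symbol was not matched. Region counting was tested on simulated lists. Alternatives were other extensions, cuts, overlaps, start distances, ties, autosomes and leaving out each library.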

Additional observations from a re-analysis of the deposited data

How the results depend on the processing

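The count, the start share and the CpG ratio depended on the extension and the cut. Extensions of 50 and 100 bp gave 4521 and 2698 members, with 65.6% and 55.3% at starts and CpG ratios of 0.673 and 0.560. Counts and start shares were then above every mixed pair (2026 to 3274 and 34.6% to 61.9% at 50 bp, 1326 to 2646 and 24.3% to 52.5% at 100 bp). Joining at 50% overlap gave 1942 members, 43.7% and 0.436. Cuts to 40000 and 30000 gave start shares of 24.1% and 29.4% and ratios of 0.319 and 0.361, the latter with 769 members. The mixed pairs had 14.4% to 22.8% at 40000 and 19.5% to 31.6% at 30000. The lists as deposited gave 234 members, 14.5% and 0.241. An extension of 500 bp gave 13.7% at starts, and start distances of 500 and 2000 bp gave 12.9% and 21.2%. The cause was not tested. Ties at random, autosomes alone and, chosen after seeing the data, leaving out the first Mb of chromosome 9 gave 1160, 1135 and 1151 members, with start shares of 16.2% to 16.6%.

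Of the 1159 members, 81.8% overlapped one at 50 bp, 33.4% at a cut of 40000, 10.1% at 30000 and 11.7% with the lists as deposited. Leaving out 1 library in turn gave counts of 1663 (without stop cassette replicate 1) to 4606 (without wild-type replicate 1), with 4459 without wild-type replicate 2 and 4173 without stop cassette replicate 2. Start shares then ranged from 14.4% to 20.4%, CpG ratios from 0.245 to 0.296, and the difference between whole lists from 3.22 to 7.54 percentage points.

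The CTCF share, with alternatives chosen after seeing the data, was 4.05% and 3.75% at 50 and 100 bp, 4.70% at 50% overlap, 7.48% at 40000 and 7.83% at 30000, and 6.39% to 7.42% with a library left out. The retinoic acid count was 4 at 40000 (mixed pairs 0 to 1), 3 at 30000 (0 to 2), 0 as deposited (1 to 5), and 9 to 14 with a library left out. These counts came from sets of differing size, with 234 members as deposited and 1663 to 4606 with a library left out. With replicate numbers as a replicate block, the whole-list difference was 5.38 with an exact permutation p of 0.5, the smallest 2 pairs allow. Depth is unknown, so no limit of detection was set.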
